A study of Mus musculus with 4 samples.

Results

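The Dlk1-Dio3 imprinted domain lies on distal mouse chromosome 12, and its 6 annotated genes Meg3, Rian, Mirg, Dlk1, Rtl1 and Dio3 were followed across 4 RNA-seq libraries of mouse embryonic stem cells. The members were taken as the rows of the count table whose Entrez gene identifiers map to these symbols. All 6 were found, among 24116 genes in the table. They were selected on measured values, since the differences of Meg3 and Rian between these libraries were already known, so the differences of the members between the groups are given as a description, with no test.

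In the domain, the parental alleles are expressed from opposite sides. The maternal chromosome expresses non-coding RNAs: Meg3, the snoRNA host Rian and the microRNA host Mirg. The paternal chromosome expresses the protein-coding genes Dlk1, a non-canonical Notch ligand, Rtl1, a Gag-like gene derived from a retrotransposon, and Dio3, the deiodinase that inactivates thyroid hormone. An intergenic region methylated on the paternal chromosome controls this pattern, and in embryonic stem cells the state of the maternal RNAs is widely used as a sign of whether the imprint is intact. RNA-seq counts of this kind do not separate the parental alleles.

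Wild-type cells were compared with a line labelled Kdm2a knockout, with 2 libraries in each group. Kdm2a removes methyl groups from lysine 36 of histone H3. All cells carry the strain label 12910la and were grown without feeders, on gelatin in serum with LIF. Per the labels' protocols, the knockout line was grown from a single clone, after guide RNA transfection and sorting of GFP-positive cells, so it stands for 1 clone. The titles say knock out while the genotype label says Kdm2a knocked down, and the Kdm2a counts of 3710 and 4753 in the knockout libraries were no lower than the 2899 and 3554 of wild type. Separate cultures are named in no label, so p-values here measure only the spread between these libraries, which may be technical.

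Library totals ran from 18844246 to 19056529 counts, and 14194 genes passed the filter on low counts, all 6 domain genes included. With edgeR's quasi-likelihood test, 0 genes passed an adjusted p of 0.05 (0% of those tested), 242 had an unadjusted p under 0.05, and DESeq2 and limma-voom called 2 and 0. Knockout 2 stood furthest from the other libraries, with correlations of log2 CPM across genes of 0.938 to 0.959 against 0.968 to 0.984 among the other 3. The median log2 difference over all tested genes was 0.00, and 50.5% of these genes had a positive difference.

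The sequences that follow show where RefSeq places starts of the maternal RNAs, because these RNAs carry most of the domain's counts. All are on the plus strand of GRCm38.p6 and come from RefSeq. A second RefSeq start of Meg3 is not printed. In GENCODE M21, 3 Mirg transcripts begin before the printed Mirg start, with an exon over Mir382 (chr12:109733771-109733846). The window of the first Meg3 start, chr12:109540746-109541045, is printed whole, with matches to the searched motifs in capitals. The windows of Rian (chr12:109603905-109603954) and Mirg (chr12:109734941-109734990) run from 40 bases before to 10 bases from the annotated start, with the last AG before the start in capitals.
Meg3 promoter: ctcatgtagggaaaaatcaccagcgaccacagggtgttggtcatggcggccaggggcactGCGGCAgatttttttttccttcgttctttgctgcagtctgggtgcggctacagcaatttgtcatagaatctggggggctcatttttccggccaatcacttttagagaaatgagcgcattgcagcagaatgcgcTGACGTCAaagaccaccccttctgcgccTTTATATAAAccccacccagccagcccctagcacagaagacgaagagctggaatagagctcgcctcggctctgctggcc
Rian start: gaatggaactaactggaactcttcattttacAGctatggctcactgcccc
Mirg start: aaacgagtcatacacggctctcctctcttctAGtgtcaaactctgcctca

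Motifs were searched on both strands of windows of 300 bases around each annotated start. They were the hexamer bound by the imprint protein ZFP57 (TGCCGC), the cyclic AMP response element (TGACGTCA), the Sp1-type box (GGGCGG, here called the GC box) and the TATA box, searched as TATAAA. The first Meg3 window held a ZFP57 hexamer 190 bases before the start on the minus strand. It also held a palindromic cyclic AMP response element 57 bases before the start. Its 2 TATA matches overlap each other, and the one on the plus strand begins 25 bases before the start. Of 32851 such windows in the genome, 11.6% held the hexamer, 1.79% the response element and 13.6% a TATA box.

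The windows of Rian, Mirg, Dlk1 and the second Meg3 start (chr12:109545148-109545447) held none of the 4 motifs. Rian's window had 0 CpG dinucleotides and that of the second Meg3 start had 1. Mirg had 10, the first Meg3 start 13, Dlk1 9 and Dio3 25. The median over all windows was 7. Both the Rian and the Mirg start lie 7 bases after an AG that follows a run rich in pyrimidines, as printed above. In the other windows the last AG lay 5 bases from the first Meg3 and Dlk1 starts, 4 from Dio3 and 20 from the second Meg3 start. The stretch before the Dlk1 AG is also rich in pyrimidines. Dio3, which codes for the deiodinase, had the window richest in CpG among those of the domain, with 4 GC boxes and a TATA box that begins 31 bases before the start.

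A second set of sequences shows the small RNAs of the domain whose rows held the most counts. Reads on these rows are not told apart from longer RNA over the same bases, as given below. DQ267101 is a snoRNA of 73 bases inside Rian (chr12:109651424-109651496 in GENCODE M21), printed with its C box (TGATGA) and D box (CTGA) in capitals. Mir1906-1 lies in an exon of Meg3 and Mir410 in an exon of Mirg, and their mature RefSeq sequences are printed with the seed, bases 2 to 8, in capitals. miR-494-5p is shown because it shares its seed with miR-410-5p.
DQ267101: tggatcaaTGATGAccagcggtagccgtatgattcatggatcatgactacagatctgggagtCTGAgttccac
mmu-miR-1906: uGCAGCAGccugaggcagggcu
mmu-miR-410-3p: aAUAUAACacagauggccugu
mmu-miR-410-5p: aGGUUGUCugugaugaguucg
mmu-miR-494-5p: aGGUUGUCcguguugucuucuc

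RefSeq places 58 microRNA hairpins in the domain, 54 of them on the plus strand, with 113 mature sequences and 104 distinct seeds. Of these hairpins, 55 have a row in the count table, and Mir127, Mir433 and Mir3071 have none. They are thus not the same set as the microRNA rows counted below. Only 9 seeds are shared, each by 2 mature sequences, the seed GGUUGUC of miR-410-5p and miR-494-5p among them. GENCODE lists 23 snoRNA genes between Dlk1 and Dio3, and the other 22 are 55.7% to 83.6% identical to DQ267101.

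Meg3 and Rian were the most abundant RNAs of the domain and stood higher in both libraries labelled knockout. Meg3 (Entrez gene 17263, chr12:109540996-109571729) is a nuclear long non-coding RNA. Wild-type libraries held 2370 and 2241 counts, against 3011 in knockout 1 and 4539 in knockout 2. The groups did not overlap, and the wild-type libraries lay close together while the knockout libraries did not. In CPM (counts scaled to library size with TMM factors), Meg3 was at 120 ± 5.40 in wild type and 203 ± 65.2 in the knockout group (mean ± SD, n = 2 each). Its fitted log2 fold change was 0.76 (SE 0.27).

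Rian (Entrez gene 75745, chr12:109603945-109661716) is the host transcript of many C/D box snoRNAs. Its counts were 2338 and 2291 in wild type, 3527 in knockout 1 and 5003 in knockout 2. As with Meg3, knockout 2 was highest and the groups did not overlap. Rian was at 120 ± 2.39 CPM in wild type and 230 ± 64.2 in the knockout group (SD, n = 2 each), with a log2 fold change of 0.93 (SE 0.26).

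Mirg (Entrez gene 100040724, chr12:109734981-109749458) hosts the microRNA cluster at the distal end of the non-coding genes. Wild type gave 110 and 222 counts, against 215 in knockout 1 and 559 in knockout 2. Here the groups overlapped: knockout 1 stood between the wild-type libraries, and knockout 2 alone was above both. The log2 fold change was 1.28 (SE 0.57).

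Each library was set against the wild-type mean, with intervals of 95% that cover counting error only. Meg3 was 1.31 times the wild-type level in knockout 1 (1.25 to 1.37) and 2.08 times in knockout 2 (2.00 to 2.17). Rian was 1.53 times (1.46 to 1.60) and 2.28 times (2.19 to 2.38). Mirg was 1.30 times (1.09 to 1.55) and 3.56 times (3.10 to 4.09). For each of these 3 RNAs the interval of knockout 2 lay wholly above that of knockout 1, so the libraries of this group differed by more than counting error.

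The wild-type libraries agreed within counting error for Rian, at a ratio of 0.972 (0.918 to 1.03), and differed slightly more for Meg3, at 0.938 (0.885 to 0.995). Mirg differed between them by a ratio of 2.00 (1.59 to 2.54). Summed, the 3 non-coding RNAs were at 252 and 247 CPM in wild type against 353 and 555 in the knockout group. Leaving out knockout 2 lowered the log2 fold change to 0.39 for Meg3, 0.62 for Rian and 0.38 for Mirg, and leaving out wild type 2 raised that of Mirg to 1.87. In bulk RNA, a change in the number of cells that express a gene and a change in RNA per cell cannot be told apart.

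**Figure D1:**
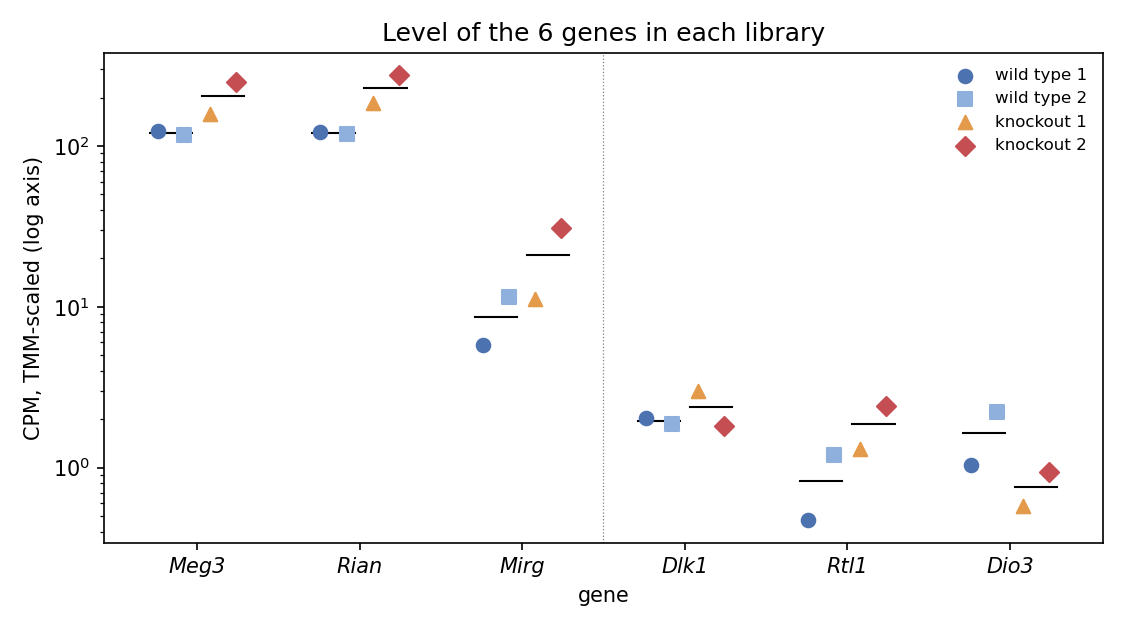
CPM, scaled by TMM, of the 6 genes in each library on a log axis: points are libraries, short lines the group means, and the dotted line separates maternally from paternally expressed genes. Meg3 and Rian are higher in both knockout libraries, with knockout 2 highest, whereas the Dlk1 points of the groups overlap and Dio3 is lower.

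The paternally expressed genes were near the limit of what this depth can measure. Dlk1 (Entrez gene 13386, chr12:109452485-109463336) gave 39 and 36 counts in wild type, 57 in knockout 1 and 33 in knockout 2. Knockout 1 was the highest library and knockout 2 the lowest, so the groups overlapped around both wild-type values. The ratio to wild type was 1.53 (1.06 to 2.18) in knockout 1 and 0.930 (0.598 to 1.42) in knockout 2. The fitted log2 fold change was 0.30 (SE 0.56), and it was -0.11 without knockout 1.

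Dio3 (Entrez gene 107585, chr12:110279230-110281097) was the only member that stood lower in the libraries labelled knockout. Wild type held 20 and 43 counts, against 11 in knockout 1 and 17 in knockout 2. The groups did not overlap, although wild type 1 and knockout 2 were 3 counts apart. The ratio to wild type was 0.351 (0.167 to 0.671) in knockout 1 and 0.570 (0.313 to 0.986) in knockout 2. The log2 fold change was -1.11 (SE 0.69), and -0.46 without wild type 2. Dio3os, the RNA transcribed opposite Dio3, had 2, 0, 1 and 0 counts in wild type 1, wild type 2, knockout 1 and knockout 2.

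Rtl1 (Entrez gene 353326, chr12:109564900-109604418) is required for normal placental capillaries, and maternal RNA from the opposite strand carries microRNAs that target it. Wild type held 9 and 23 counts, against 25 in knockout 1 and 44 in knockout 2. The groups did not overlap, but wild type 2 and knockout 1 were 2 counts apart. The log2 fold change was 1.16 (SE 0.72), and it was 1.98 without wild type 2, 0.64 without wild type 1 and 0.65 without knockout 2. The ratio to wild type was 1.57 (0.891 to 2.73) in knockout 1 and 2.90 (1.80 to 4.73) in knockout 2.

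Rtl1 lies on the minus strand, and its RefSeq span overlaps that of Meg3 by 6830 bases and that of Rian by 474, while its GENCODE M21 exons overlap theirs by 0 bases. The sources used here do not give the annotation or strand setting of the counting, so reads from Rtl1 and from RNA of the opposite strand over its exon cannot be told apart. 6430411K18Rik, a non-coding row inside the Rtl1 exon, had 6, 10, 14 and 20 counts in wild type 1, wild type 2, knockout 1 and knockout 2. Its log2 fold change was 1.12 (SE 0.71), with an adjusted p of 1.00 by edgeR. The paternal genes were therefore summed with and without Rtl1. Dlk1, Rtl1 and Dio3 together had 68, 102, 93 and 94 counts in the same order, and the ratio to wild type was 1.10 (0.844 to 1.42) in knockout 1 and 1.17 (0.898 to 1.51) in knockout 2. Dlk1 and Dio3 alone had 59, 79, 68 and 50 counts, with ratios of 0.989 (0.729 to 1.33) and 0.765 (0.542 to 1.06). The direction in knockout 2 thus turned with Rtl1, and each of these intervals includes 1.

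By the rule that both knockout libraries lie above both wild-type libraries, 3 of the 6 genes stood higher, against 11.7% of all tested genes. By the opposite rule 1 of 6 stood lower, against 12.7%. These shares are given side by side only, since the members were chosen on this contrast. The same 4 genes were separated in the same directions under TMM, DESeq2 size factors and scaling by library totals. None of the 6 passed the adjusted threshold of edgeR's test, in which no gene passed.

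Levels between genes were compared per kilobase of the GENCODE exon union. Meg3 was at 6.85 and 6.42 CPM per kb in wild type and at 8.70 and 13.8 in the knockout libraries. Rian was at 6.70 and 6.51 in wild type and at 10.1 and 15.1 in the knockout libraries. These RNAs were close in wild type and changed places between the wild-type libraries, so their order is not resolved there. Per kb of the longest transcript, Rian stood above Meg3 in all 4 libraries, so the order of this pair depends on the length used.

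Mirg ranked 3 in every library, from 0.788 CPM per kb in wild type 1 to 4.21 in knockout 2. The paternal genes came last. Dio3 was at 0.515 and 1.10 CPM per kb in wild type and at 0.283 and 0.460 in the knockout libraries, and Dlk1 ran from 0.321 to 0.526 over the 4 libraries. Rtl1 was lowest in 3 libraries, from 0.0740 in wild type 1, while Dlk1 was lowest in knockout 2. Per kb of the longest transcript, Rtl1 was lowest in all 4 libraries, so this order too depends on the length used. Dio3 and Dlk1 overlapped over the libraries, so their order is not resolved. Together the 6 genes took 0.0257% and 0.0258% of the counts in wild type, 0.0359% in knockout 1 and 0.0540% in knockout 2.

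Ratios between RNAs of the same library do not depend on scaling. There were 98.6 and 102 Rian counts per 100 Meg3 counts in wild type, and 117 and 110 in the knockout libraries. Rian and Meg3 thus stood near equal counts in all 4 libraries, with both knockout values above both wild-type values. The counting interval of knockout 1 (112 to 123) lay above those of wild type 1 (93.1 to 104) and wild type 2 (96.4 to 108). That of knockout 2 (106 to 115) lay above wild type 1 and overlapped wild type 2. Mirg was at 4.64 and 9.91 per 100 Meg3 counts in wild type and at 7.14 and 12.3 in the knockout libraries, so its share varied within both groups.

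Dlk1 was at 1.65 and 1.61 per 100 Meg3 counts in wild type, 1.89 in knockout 1 and 0.727 in knockout 2. Knockout 2 alone was low, and its interval (0.500 to 1.02) lay below those of the other libraries. Dio3 was at 0.844 and 1.92 per 100 Meg3 counts in wild type and at 0.365 and 0.375 in the knockout libraries, which lay below both wild-type values. Rtl1 was at 0.380 and 1.03 per 100 Meg3 counts in wild type and at 0.830 and 0.969 in the knockout libraries, which fell between the wild-type values.

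**Figure D2:**
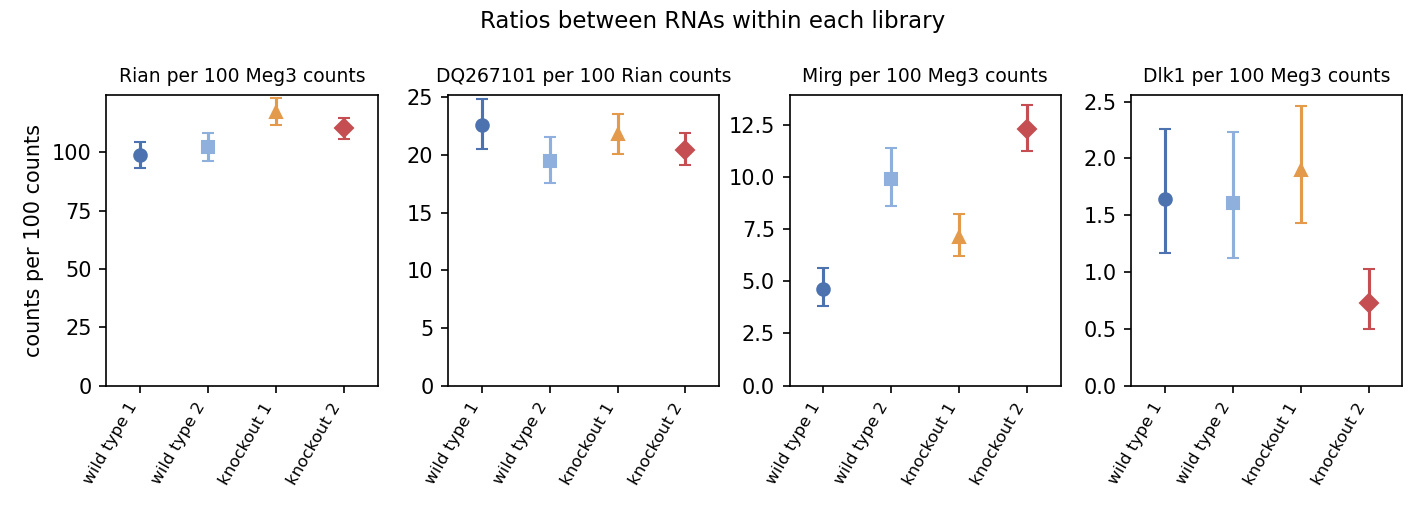
Counts of one RNA per 100 counts of another in the same library, with exact intervals of 95% that cover counting error only and each axis starting at 0. DQ267101 stays between 19.5 and 22.6 per 100 Rian counts, while Mirg per 100 Meg3 counts ranges from 4.64 to 12.3 and Dlk1 per 100 Meg3 counts is lowest in knockout 2, at 0.727.

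Besides the 6 genes, 67 rows of the table lie between the start of Begain and the end of Dio3: 58 microRNAs, 5 snoRNAs, 3 long non-coding RNAs and Begain. The snoRNA DQ267101 was the most counted of them. Wild type gave 528 and 446 counts, against 768 in knockout 1 and 1023 in knockout 2. The groups did not overlap, and its log2 fold change was 0.93 (SE 0.29), with an adjusted p of 1.00 by edgeR. Its host Rian had a log2 fold change of 0.93 as well.

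DQ267101 made 22.6 and 19.5 counts per 100 Rian counts in wild type and 21.8 and 20.4 in the knockout libraries. These ratios overlapped between the groups. In GENCODE M21, 8 Rian transcripts span the snoRNA and 1 has an exon there, so its reads and those of unspliced or alternative Rian RNA cannot be told apart. The other 4 snoRNA rows, also inside Rian, had 2 to 15 counts over all libraries.

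Mir1906-1, in an exon of Meg3, gave 59 and 37 counts in wild type, 68 in knockout 1 and 86 in knockout 2. The groups did not overlap, the log2 fold change was 0.73 (SE 0.52), and the adjusted p was 1.00 by edgeR. It made 2.49 and 1.65 counts per 100 Meg3 counts in wild type and 2.26 and 1.89 in the knockout libraries, which lay between the wild-type values. Mir410, in an exon of Mirg, had 1, 5, 5 and 21 counts in wild type 1, wild type 2, knockout 1 and knockout 2, and did not pass the filter on low counts.

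Of the other 56 microRNA rows, 37 had 0 counts in all libraries and no row had more than 10 counts in all. Their summed counts were 3 and 9 in wild type, 12 in knockout 1 and 24 in knockout 2. These libraries were made from fragmented RNA by random priming, and mature microRNAs are shorter than the reads, so these rows count longer RNA over the hairpins and give no level of mature microRNA.

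Genes just outside the domain were read in the same way. Begain, a synaptic scaffold gene next to Dlk1, gave 72 and 85 counts in wild type, 53 in knockout 1 and 32 in knockout 2. It was lower in both knockout libraries, with a log2 fold change of -0.85 (SE 0.52) and an adjusted p of 1.00 by edgeR. The 5 tested genes before Begain (Yy1, Slc25a29, Slc25a47, Wars and Wdr25) and the 5 after Dio3 (Ppp2r5c, Dync1h1, Hsp90aa1, Wdr20 and Mok) had log2 fold changes from -0.22 to 0.35, with a median of 0.07. None had an unadjusted p under 0.05. Wars stood higher and Mok lower in both knockout libraries, and the other 8 overlapped, so 1 of 10 was separated each way, near the 11.7% and 12.7% of all tested genes. Wars counts were 1602 and 1840 in wild type and 2194 and 1948 in the knockout libraries, while Mok counts were 345 and 374 in wild type and 291 and 306 in the knockout libraries.

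**Figure D3:**
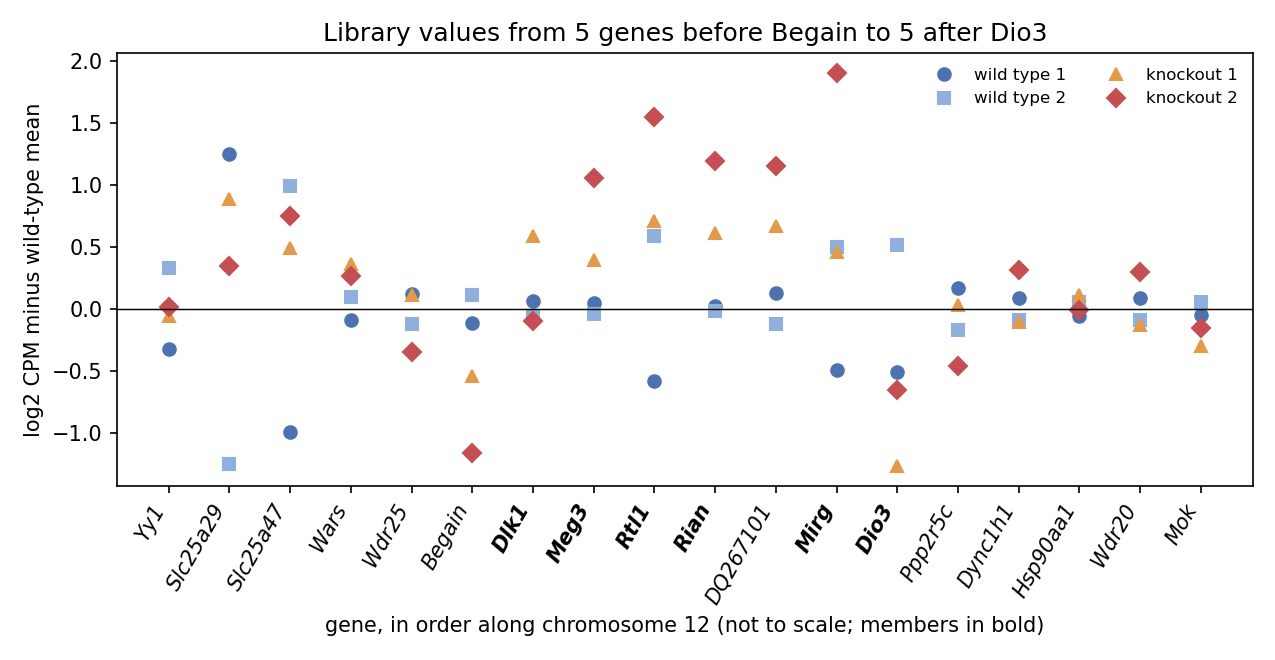
Log2 CPM of each library minus the wild-type mean, for 18 genes in their order along chromosome 12 (order only, not distance), with the domain genes in bold. Meg3, Rian, Rtl1, Mirg and DQ267101 lie above 0 in both knockout libraries, as do the flanking genes Slc25a29, Slc25a47 and Wars. Knockout 2 reaches 1.90 for Mirg, and Begain, Dio3 and the flanking gene Mok lie under 0 in both knockout libraries. Both wild-type points stand close to 0 for Meg3 and Rian.

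Genes known to act on the imprints of the domain were counted as a list. In this list of 18 regulators, 15 had positive and 3 negative fold changes with a median of 0.10, and 0 passed the adjusted threshold. Over all tested genes, 50.5% were positive. Several of the 15 lay near 0, such as Zfp57 at 0.01, Zfp281 at 0.02 and Tet2 at 0.03. By library separation, 1 of the 18 stood higher and 1 lower, against 11.7% and 12.7% of all tested genes. Zfp445, a zinc finger protein that protects imprints with Zfp57, gave 1235 and 1006 counts in wild type, 1534 in knockout 1 and 1735 in knockout 2. It did not overlap between groups, and its log2 fold change was 0.59 (SE 0.24), with an adjusted p of 1.00 by edgeR.

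A few other regulators are named here for their role, after their values were seen. Zfp57, which binds the methylated hexamer, gave 6485 and 7194 counts in wild type and 8101 and 5355, overlapping between the groups. Dppa3, which protects DNA methylation in the early embryo and guards this domain in stem cells, gave 44 and 40 counts in wild type, 29 in knockout 1 and 4 in knockout 2. Knockout 2 was far below the rest, and the log2 fold change was -1.32 (SE 0.86, adjusted p of 1.00 by edgeR). Aff3, which binds the intergenic control region, gave 106 and 118 counts in wild type, 100 in knockout 1 and 391 in knockout 2, so knockout 2 alone was high.

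Polycomb proteins silence the maternal Dlk1 allele with help from Meg3. Of 6 Polycomb genes, 4 had positive and 2 negative fold changes, with a median of 0.08, and 0 were called. Jarid2, the highest of them in CPM, gave 9076 and 14289 counts in wild type and 13531 and 13217, which fell between the wild-type values.

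Pathways of the paternal genes were also counted. Among 14 tested genes of the Notch pathway, which Dlk1 modulates, 8 were positive and 6 negative, with a median of 0.14. Rbpj, the transcription factor of the pathway, gave 8315 and 14912 counts in wild type and 9512 and 10430. Among 4 tested genes of thyroid hormone handling, the pathway of Dio3, 1 was positive and 3 were negative, and Thra, a thyroid hormone receptor, gave 459 and 276 counts and then 428 and 210. Among 4 tested Gag-like relatives of Rtl1, 3 were positive and 1 was negative, and Peg10 gave 6303 and 10254 counts in wild type and 9387 and 15788. No gene in these lists was called, and each of the 3 genes named overlapped between groups.

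Imprinted genes of other loci were set beside the domain. Of 11 tested genes elsewhere that were listed as maternally expressed, 5 were positive and 6 negative, and 0 were called. Which allele these cells express was not measured. Their median difference from wild type was 0.05 in knockout 1 and -0.87 in knockout 2, while Meg3, Rian and Mirg were above the wild-type mean in both, Mirg in knockout 1 within the wild-type range. H19, a maternally expressed non-coding RNA, gave 235 and 84 counts in wild type, 8 in knockout 1 and 46 in knockout 2. In knockout 2, 4 of the 11 were at least 1 log2 unit below the wild-type mean, against 8.74% of all tested genes. Grb10, a growth inhibitor named after its values were seen, had 1582 and 1351 counts in wild type, 3896 in knockout 1 and 199 in knockout 2, on opposite sides of wild type.

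Of 21 tested genes elsewhere that were listed as paternally expressed, 15 were positive and 6 negative, and 0 were called. Over all tested genes, 50.5% were positive. The list includes Zim1, which is maternally expressed in mouse. Zim1 differed from the wild-type mean by -0.09 in knockout 1 and 0.17 in knockout 2. The median difference of the 21 was -0.31 in knockout 1 and 0.54 in knockout 2. In knockout 2, 7 of the 21 were at least 1 log2 unit above the wild-type mean, against 6.82% of all tested genes. Snrpn and Snurf, which overlap and have nearly the same counts, are both among the 7. In knockout 1, 3 of the 21 were at least 1 log2 unit below, against 1.82% of all tested genes. Mest, a hydrolase-like gene, gave 1336 and 1339 counts in wild type, 87 in knockout 1 and 196 in knockout 2, with a log2 fold change of -3.18 (SE 0.44) and an adjusted p of 1.00 by edgeR. Magel2, a gene of the Prader-Willi region, gave 1 and 7 counts in wild type and 15 and 23 in the knockout libraries. It passed the filter on low counts only through the knockout libraries, where it is high, and is among the 15 and the 7 above.

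**Figure D4:**
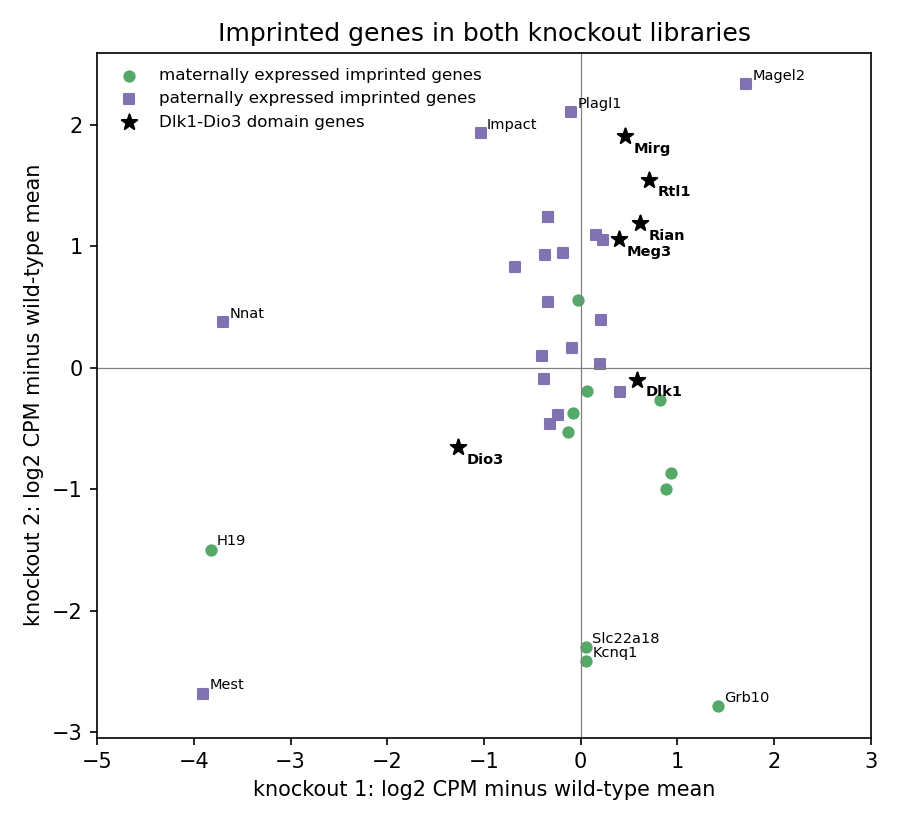
Log2 CPM minus the wild-type mean in knockout 1 (horizontal) and knockout 2 (vertical) for the 6 domain genes (stars) and tested imprinted genes elsewhere. Meg3, Rian, Mirg and Rtl1 lie above 0 on both axes, while Grb10 is at 1.42 and -2.79 and Mest at -3.91 and -2.68.

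Markers of cell types were read beside these values. Lists of 6 to 10 genes are given by their summed CPM in the wild-type and then the knockout libraries. The embryonic stem cell list stood at 6711 to 7082 against 5973 to 7443, and Tdgf1, its highest gene, had 26542 and 18121 counts against 23802 and 15106. The neural list stood at 96.1 to 125 against 124 to 167, led by Tubb3, and 5 of 7 genes were tested, all with positive differences. Endoderm markers stood at 4.93 to 11.5 against 8.52 to 16.4, mesoderm markers at 15.4 to 19.7 against 12.8 to 30.6 and trophoblast markers at 37.0 to 79.3 against 54.6 to 85.4. In these 3 lists and the neural list, knockout 2 was the highest library by summed CPM, as it was for Meg3, Rian and Mirg. Single genes carried most of some sums. Tfap2c had 66.3 and 23.1 CPM in wild type and 43.5 and 75.0 in the knockout libraries of the trophoblast sum. Eomes had 12.7 and 16.6, then 10.3 and 25.9, of the mesoderm sum. Among the genes of these 4 lists, some are named after their values were seen. Foxa2 had 1, 0, 1 and 59 counts in wild type 1, wild type 2, knockout 1 and knockout 2. In the same order Sox7 had 5, 12, 11 and 60, Pax6 had 89, 129, 123 and 251, and Sox1 had 175, 250, 255 and 367. Knockout 2 was not highest for Sox17 (14, 3, 6 and 1), Gata6 (52, 11, 48 and 27) or Krt8 (243, 251, 208 and 167). Above the wild-type mean in knockout 2 were 5 of 5 tested neural, 4 of 4 endoderm, 3 of 3 mesoderm and 2 of 3 trophoblast genes. The median difference of knockout 2 over all tested genes was 0.01.

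Fibroblast markers stood at 37.5 to 89.6 against 30.3 to 63.0, and markers of the 2-cell-like state at 10.2 to 18.2 against 3.96 to 19.8. Knockout 2 was the lowest library in both lists and in the embryonic stem cell list, and all 6 genes of the 2-cell-like list were at least 1 log2 unit below the wild-type mean there. Markers at or near 0 in all libraries were Dcx for neurons, Afp for endoderm, Cdx2 and Elf5 for trophoblast, and Lum, Col3a1 and Postn for fibroblasts. Most of the fibroblast sum came from Thy1 and Pdgfrb. Thy1 had 36.5 and 16.4 CPM in wild type and 31.0 and 17.8 in the knockout libraries. Pdgfrb had 43.9 and 16.6, then 26.3 and 9.90. No list held a called gene. The part of these cell types in the values of the domain was not tested.

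Profiles over the 4 libraries were compared by the Euclidean distance of log2 CPM after centring, over the 9458 genes whose mean reached 10 CPM. The nearest to Meg3 were Tspan5 (distance 0.09), Trmo, Zfp422, Kctd15 and Raph1. Rian ranked 20, DQ267101 42 and Mirg 6248 by likeness to Meg3. Among the nearest to Rian were Egln3 (distance 0.09), Lrp2, Rpl15 and DQ267101, and Meg3 ranked 6. These distances rest on 4 libraries and describe likeness only.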

How the data were processed

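RNA (total RNA per the labels) of mouse embryonic stem cells was sequenced on BGISEQ, and the authors deposited whole-number read counts per Entrez gene. The submitters' processing notes name the mm10 build, HISAT2 and featureCounts, without versions. No source used here gives the annotation or strand setting. The members and gene lists were chosen with earlier results of these data known. Library totals are in the report, and 3 counts correspond to 0.156 to 0.165 CPM.

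Genes were filtered with filterByExpr, scaled by TMM and tested with edgeR 4.0.16 (quasi-likelihood, Benjamini-Hochberg adjusted p under 0.05), 2 wild-type against 2 knockout libraries. Log2 CPM used a prior count of 2. Ratio intervals are exact binomial (95%) and cover counting error only. DESeq2 1.42.0, limma 3.58.1, other scalings and filters, the replicate block and leaving out each library were alternatives. On simulated counts of 13966 genes for this comparison, edgeR recovered 28% of 2-fold and 76% of 4-fold changes, with 2 false calls. The simulated spread followed the trend with expression alone, without gene-specific spread or an outlying library such as knockout 2. Recovery in the real libraries may therefore be lower.

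The genes named were the 6 members, other domain rows with a mean of at least 10 counts, the 5 nearest tested genes on each side, the 5 nearest profiles (mean of at least 10 CPM, 1 not reported here), and in each list those with an unadjusted p under 0.05 or else the one with the highest CPM. Others are marked where named. Genes were matched by Entrez identifier to RefSeq GRCm38.p6, and 24061 of 24116 had a symbol. RefSeq gave sequences for Meg3, Rian, Mirg, Dlk1 and Dio3 starts.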

Additional observations from a re-analysis of the deposited data

How the results depend on the processing

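DESeq2 called 2 genes where edgeR called 0, and called members numbered 0 under every alternative run. With DESeq2 size factors, library totals, other filters, DESeq2, limma-voom and the replicate block, the log2 fold change ran from 0.71 to 0.76 for Meg3, 0.88 to 0.93 for Rian, 1.18 to 1.28 for Mirg, 0.26 to 0.30 for Dlk1, 1.10 to 1.22 for Rtl1 and -1.17 to -1.04 for Dio3. Leaving out each library in turn, with the lone library of a group assumed to vary like the other group, gave 0 to 91 called genes, 91 without knockout 1 and 8 without knockout 2. It gave 0.39 to 1.05 for Meg3, 0.62 to 1.19 for Rian, 0.38 to 1.87 for Mirg, -0.11 to 0.61 for Dlk1, 0.64 to 1.98 for Rtl1, -1.56 to -0.46 for Dio3 and 0.51 to 1.15 for the summed maternal RNAs (0.87 with all libraries). The causes were not tested. With the replicate number as a block, 0 genes were called, and Meg3 was at 0.72, Rian at 0.90, Mirg at 1.20, Dlk1 at 0.26, Rtl1 at 1.22 and Dio3 at -1.07. The deviations of same-numbered libraries correlated across genes at r = 0.347, but the labels tie the numbers to nothing shared and 2 pairs are too few to establish pairing. Counts of 9 to 57 limit Dlk1, Rtl1 and Dio3.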
